A study of Mus musculus with 51 samples.

Results

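Ccr1, Ccr1l1, Ccr3 and Ccr2, 4 genes of the mouse chemokine receptor cluster, lie near the distal end of chromosome 9, and they were examined here together with the interval of 400 kb that holds them and starts at chr9:123900001 (mouse build mm10). The interval was chosen because it holds the widest autosomal peaks of both DMC1 lists of the series, so the widths of those peaks are given as a description, with no test. The 4 genes are 4 of 49598 RefSeq genes on the primary chromosomes, and the interval holds 43 of 14692 DMC1 peaks of Hells CKO testis and 54 of 15831 DMC1 peaks of Hells het testis.

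The 51 samples of the series are chromatin libraries of mouse testis. Enriched male germ cells of animals 12 to 14 days old were used for ATAC-seq, which reads open chromatin, and for ChIP-seq of histone marks. DMC1 was immunoprecipitated from testis at 6 weeks of age, and HELLS from testis of the knock-in at 12 to 14 days. The groups used here were Hells CKO (conditional knockout, 3 ATAC, 3 H3K4me3 and 2 DMC1 libraries), set against Hells wt (2 ATAC libraries and 1 H3K4me3 library) or, for DMC1, Hells het (2 libraries). B6-Prdm9CAST-KI (KI, 2 ATAC and 2 H3K9ac libraries), in which C57BL/6J animals carry the Prdm9 allele of the CAST strain, was set against C57BL/6J (B6, 2 ATAC and 3 H3K9ac libraries). Spo11/Spo11 mutants (1 H3K9ac library and 2 H3K4me3 libraries) were set against Spo11/+ for H3K4me3 (1 library) and against B6 for H3K9ac. HELLS ChIP of KI testis (2 libraries) was set against IgG and input (1 library each), and (B6xCAST) F1 germ cells gave 2 ATAC libraries and 1 H3K9ac library. The labels of B6 histone libraries name the authors' chromatin states. Those libraries include H3K4me1, H3K27me3 and H3K27ac (2 libraries each) and H2A.Z and H2B120ac (1 library each). The labels do not name the Cre or the cells in which Hells was deleted, the kind of Spo11 allele, or whether libraries of 1 group came from separate animals, and the p-values therefore cover no more than the differences between libraries, which may be technical.

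Chemokine receptors are membrane receptors that guide leukocytes along gradients of chemokines. Ccr1 and Ccr2 are known from monocytes and macrophages, Ccr2 as the receptor of Ccl2, and Ccr3 is known from eosinophils as the receptor of eotaxins such as Ccl11 and Ccl24, while Ccr1l1 is a Ccr1-like gene of the mouse. In meiosis, SPO11 makes DNA double-strand breaks, and the recombinase DMC1 coats the resected ends, so DMC1 ChIP maps where breaks were made. PRDM9 marks most break hotspots with H3K4me3, and HELLS is a chromatin remodeler that works with PRDM9 to open them. A minisatellite known as mo-2 lies in the mouse pseudoautosomal region and near the distal ends of chromosomes 4, 9 and 13, where break proteins are known to gather, and this is given as background.

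The sequence of the interval is shown first because tandem copies of a 31-base unit lie under 2 of the 4 KI and B6 ATAC regions and 2 of the 5 Hells ATAC regions of the interval. RefSeq's GRCm38.p6 genome, the assembly of mm10, held 5 arrays with period 31 in the interval, in 2 groups. The 3 arrays of the first group span chr9:123924420-123924607, chr9:123925696-123925819 and chr9:123925965-123926201, within or just before Gm51701, a long noncoding RNA gene. The 2 arrays of the second group, chr9:124256316-124257271 and chr9:124257285-124257987, are 956 and 703 bases long and hold 30.8 and 22.7 copies. The most frequent unit of the longest array and the closest window to it in each of the other 4 arrays were the following on the + strand, with capitals at the bases that differ from the unit when both are turned to the same start.
Unit, chr9:124256557-124256587: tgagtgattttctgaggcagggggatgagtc
Array at chr9:123924420-123924607, window chr9:123924518-123924548: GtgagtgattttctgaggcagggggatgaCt
Array at chr9:123925696-123925819, window chr9:123925734-123925764: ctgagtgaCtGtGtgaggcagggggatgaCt
Array at chr9:123925965-123926201, window chr9:123926148-123926178: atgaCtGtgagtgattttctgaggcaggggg
Array at chr9:124257285-124257987, window chr9:124257670-124257700: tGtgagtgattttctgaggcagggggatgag
The windows matched the unit at 29, 27, 29 and 30 of 31 bases. The unit was not compared with a mo-2 sequence.

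The whole array at chr9:123925965-123926201 is shown because it lies under the only HELLS peak of the interval. Capitals mark words of 12 bases that the unit also holds on either strand, and they cover 99 of its 237 bases.
Array: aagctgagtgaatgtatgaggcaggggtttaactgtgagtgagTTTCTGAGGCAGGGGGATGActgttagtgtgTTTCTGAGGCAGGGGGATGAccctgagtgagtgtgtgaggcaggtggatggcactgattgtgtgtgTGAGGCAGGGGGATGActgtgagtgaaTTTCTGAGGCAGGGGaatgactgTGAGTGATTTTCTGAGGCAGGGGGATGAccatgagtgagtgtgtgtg

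Exact words of 20 bases from the unit, sought on both strands of the assembly, were found 2806 times in 27 loci. The loci with the most words lay on chromosome Y (848 words, chrY:90760652-90783529), near the distal end of chromosome X (762, chrX:169986135-170008613), near the end of chromosome 13 (611, chr13:119595512-119602982) and at the second group of arrays here (254, chr9:124256273-124257978). The first group here held 25 words, and a further locus just before the interval held 11. Both Y and distal X loci lie at the end of their chromosomes, 0.0612 and 0.873 Mb before the last sequenced base, and the chromosome 13 and chromosome 9 loci lie 0.719 and 0.237 Mb before theirs. No locus placed on chromosome 4 held these words. A contig without a position on any chromosome of the assembly held 158 words, and its place was not resolved here.

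DMC1 peaks covered a large share of the interval in both genotypes, and each list had its widest autosomal peaks there, although the median het peak was narrower than elsewhere. The peaks covered 227699 bases in Hells CKO testis and 141151 bases in Hells het testis. Assembly gaps take 27.7% of the interval. The covered bases came to 78.7% of the number of its sequenced bases in CKO and 48.8% in het. Both shares are slightly high, because peak bases that lie in gaps are counted. Over all autosomes, DMC1 peaks covered 1.197% in CKO and 1.268% in het. The lists were merged over the replicates of a genotype by the authors and hold positions without a score, so neither replicates nor peak heights could be compared.

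**Figure D1:**
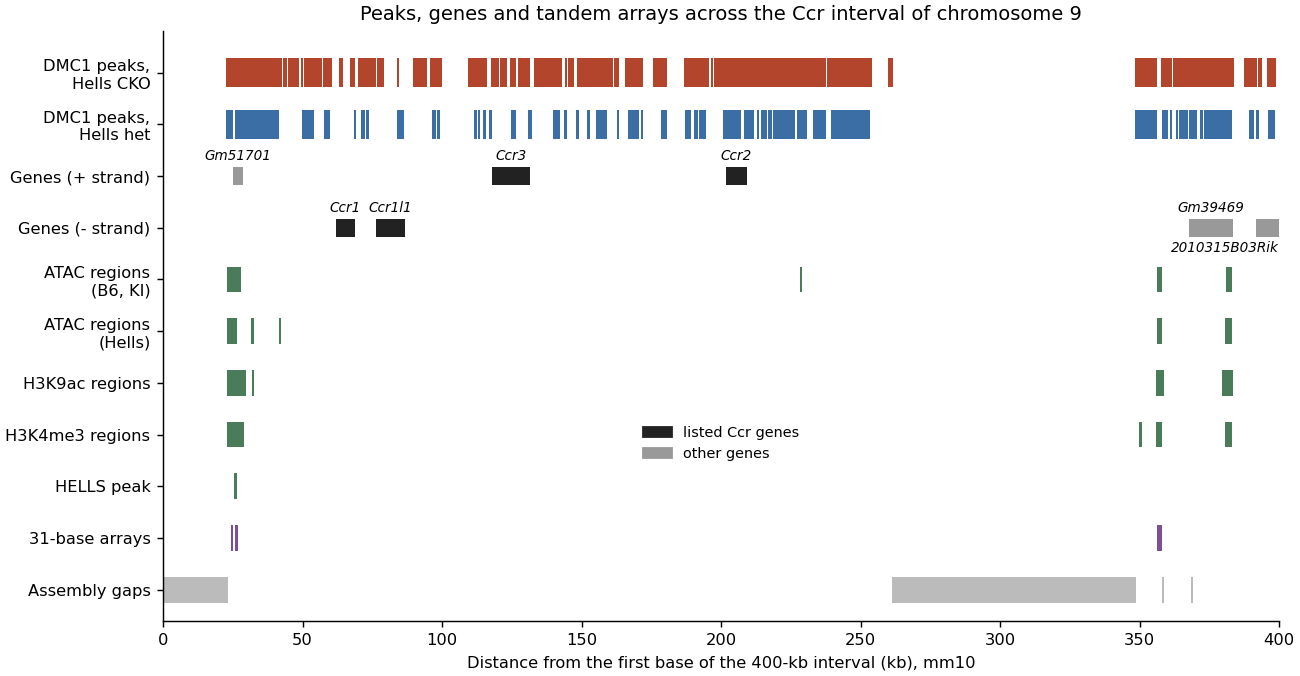
Map of the 400-kb interval, with distance from its first base in kb and 1 row for each peak list, gene strand or table. The H3K9ac and H3K4me3 rows draw 4 of their 5 regions, and the gene rows draw the 4 listed genes in black and 3 others in grey. DMC1 peak bases, including some in gaps, come to 78.7% of the number of sequenced bases in Hells CKO and 48.8% in Hells het. The Gm51701, long-array and Gm39469 places have a region in each of the 4 ATAC and histone rows.

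The widest CKO peak, chr9:124099830-124137670, was 37841 bases long and held the whole of Ccr2. The next by width in the CKO list were chr9:124261894-124283981 (22088 bases, over Gm39469), chr9:123922387-123942774 (20388 bases, over Gm51701) and chr9:124137904-124154194 (16291 bases, in intergenic sequence). These 4 hold ranks 1 to 4 among 13965 autosomal CKO peaks, and chr9:124033090-124042995 (9906 bases) holds rank 7. The widest CKO peaks outside the interval were chr15:35292634-35303419 (10786 bases), chr14:61680193-61690509 (10317 bases), chr3:144201152-144210438 (9287 bases), chr2:18670692-18679181 (8490 bases) and chr19:12005379-12013764 (8386 bases). All 5 were narrower than the 4 leading peaks of the interval.

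In the het list the leading peaks were chr9:123925713-123941555 (15843 bases, over Gm51701), chr9:124139380-124153382 (14003 bases) and chr9:124273188-124283175 (9988 bases, over Gm39469), at ranks 1 to 3 of 14759 autosomal peaks. The peaks chr9:124248417-124256403 (7987 bases) and chr9:124118713-124126566 (7854 bases) held ranks 5 and 7. Outside the interval the widest het peaks were chr5:20900516-20909039 (8524 bases), chr4:134471647-134479578 (7932 bases), chr2:80273619-80281036 (7418 bases), chr15:34947360-34954630 (7271 bases) and chr9:52073698-52080848 (7151 bases). By the rule that chose the interval, the widest autosomal peak of each list lay inside it. It measured 37841 bases in CKO and 15843 in het, beside 10786 and 8524 bases for the widest outside.

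The remaining peaks showed that width was not shared by all members. The median width in the interval was 3122 bases in CKO (quartiles 1606 and 5720) and 1453 bases in het (quartiles 954.5 and 2586). Elsewhere on the autosomes it was 1905 bases in CKO (quartiles 1189 and 2840) and 2000 bases in het (quartiles 1362 and 2774). Peaks over 5000 bases made up 13 of the 43 CKO peaks and 5 of the 54 het peaks of the interval, beside 121 of 13922 CKO and 53 of 14705 het peaks elsewhere. Both lists have a minimum width of 800 bases. Outside the autosomes, a CKO peak of 103111 bases at chrX:169867779-169970889 was wider than any of chromosome 9, as was a het peak of 16463 bases at chrX:169972096-169988558.

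**Figure D2:**
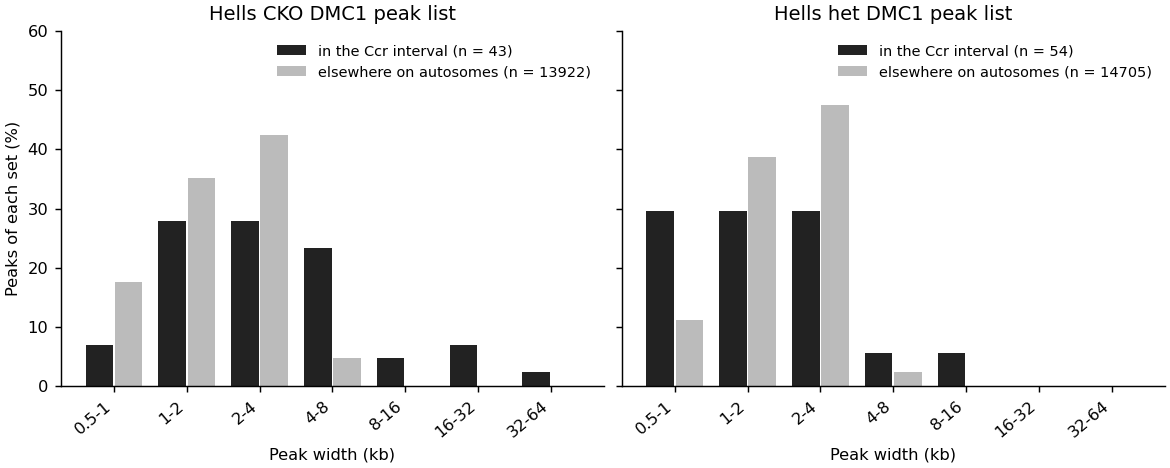
Share of DMC1 peaks in each width class (kb, doubling from class to class) for the Ccr interval in black and the other autosomal peaks in grey, with Hells CKO on the left and Hells het on the right. The interval holds all CKO autosomal peaks over 16 kb, while 16 of its 54 het peaks are under 1 kb.

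Nearly all het DMC1 bases of the interval also lay in CKO peaks, while the CKO peaks reached further. The 2 lists shared 136231 bases of the interval, which is 59.8% of the CKO bases and 96.5% of the het bases. CKO peaks overlapped a het peak in 30 of 43 cases (69.8%), and het peaks overlapped a CKO peak in 54 of 54 cases (100%). Elsewhere on the autosomes 11.1% of CKO peaks overlapped a het peak and 10.6% of het peaks overlapped a CKO peak. Larger shares than these were not particular to the interval. In the last 1 Mb of chromosome 4, 20 of 54 CKO peaks and 24 of 40 het peaks overlapped the other list. In the last 1 Mb of chromosome 13, 10 of 23 CKO and 9 of 12 het peaks did. In the last 1 Mb of chromosome X, 4 of 4 CKO and 19 of 20 het peaks did. The overlap was not tested, since the interval was chosen for wide peaks in both lists and wide peaks cover much of it.

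The DMC1 peaks reached each of the listed genes. Ccr2 (chr9:124101918-124109140, + strand) lay wholly inside a CKO peak, and het peaks covered 79.9% of it. Of 21521 protein-coding genes, 0.711% had as large a covered share as Ccr2 in CKO and 0.107% in het. The interval was chosen for its wide peaks, so no weight rests on such shares of genes here. All 4 annotated starts of Ccr2 lay in the CKO peak and 3 of 4 lay in het peaks. Ccr3 (chr9:124017825-124031692, + strand) was covered over 81.9% in CKO and 17.5% in het, with both annotated starts inside CKO peaks and neither inside a het peak.

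Ccr1 and Ccr1l1 were less covered. Ccr1 (chr9:123962126-123968692, - strand) was covered over 47.2% in CKO and 3.38% in het, and 12.95% of protein-coding genes had as large a share as Ccr1 in het. The het peak at Ccr1, chr9:123968471-123969270, lay over its start. Ccr1l1 (chr9:123976430-123986715, - strand) was covered over 32.9% in CKO and 23.6% in het, and its start lay in no peak of either list. Within 1000 bp of an annotated start, a DMC1 peak was present for 3 of the 4 listed genes in CKO, all but Ccr1l1, and for 4 of 4 in het. Over all protein-coding genes the share was 40.4% in CKO and 5.65% in het. Since the interval was chosen from these lists, no weight rests on that contrast.

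The promoters of Ccr2 and Ccr1 are shown, from RefSeq's table for the same build, because DMC1 peaks of both genotypes lay on them. Each runs 5′ to 3′ on the gene's strand, with capitals from an annotated start onward. For Ccr2 that start is not the first of its 4, which is at chr9:124101918. The Ccr2 window, lower-case bases included, therefore lies inside the annotated gene. Peaks covered 100% of the Ccr2 window in CKO and 74.0% in het, and 30.7% of the Ccr1 window in CKO and 100% in het.
Ccr2, chr9:124101933-124102232: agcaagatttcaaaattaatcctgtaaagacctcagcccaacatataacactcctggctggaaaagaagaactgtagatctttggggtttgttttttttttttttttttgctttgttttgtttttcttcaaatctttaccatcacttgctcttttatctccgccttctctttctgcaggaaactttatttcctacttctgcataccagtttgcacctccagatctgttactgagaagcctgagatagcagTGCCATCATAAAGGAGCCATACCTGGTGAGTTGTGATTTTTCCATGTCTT
Ccr1, chr9:123968643-123968942: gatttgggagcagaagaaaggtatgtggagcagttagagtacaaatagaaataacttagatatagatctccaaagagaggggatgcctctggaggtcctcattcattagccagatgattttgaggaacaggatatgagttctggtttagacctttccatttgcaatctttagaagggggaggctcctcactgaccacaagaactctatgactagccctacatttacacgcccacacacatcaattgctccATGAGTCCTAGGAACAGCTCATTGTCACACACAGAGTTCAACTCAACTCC

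Other genes of the interval were covered as widely. Gm51701 was covered over 100% in CKO and 84.1% in het, and Gm39469, a predicted protein-coding gene, over 100% in CKO and 86.9% in het. The gene 2010315B03Rik, whose body crosses the end of the interval, was covered over 58.4% in CKO and 43.1% in het.

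DMC1 peaks of the interval lay in other chromatin states than most DMC1 peaks outside it. The authors divided the genome into 11 numbered states, of which state 1 held 40.4% of all protein-coding starts and state 7 made up 0.562% of the genome. The labels tie the states to B6 libraries at 12 to 14 days, while the DMC1 peaks are from Hells testis at 6 weeks. Of the 54 het peaks of the interval, 37 had their centre in state 11 and 0 in state 7. State 7 makes up 0 bases of the interval, so no centre could lie in it. Elsewhere on the autosomes, state 11 held 8.05% of het peak centres and state 7 held 69.3%. Of the 43 CKO peaks of the interval, 30 had their centre in state 11 and 0 in state 1. Elsewhere, state 11 held 0.769% of CKO peak centres and state 1 held 64.6%. The shares of centres in state 11 in the interval, 68.5% in het and 69.8% in CKO, stood near that state's 63.2% of its sequenced bases.

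State 11 was also the most common state of the interval. It made up 73.3% of all bases of the interval and 63.2% of its sequenced bases, beside 45.2% of chromosome 9 and 43.7% of the genome. State 7 was absent from the interval, and states 9 and 10 made up 6.15% and 10.5%. The body of Ccr2 lay wholly in state 11, that of Ccr1 over 93.9% and that of Ccr1l1 over 73.1%, while Ccr3 lay over 66.3% in state 9 and 29.3% in state 11. No start of Ccr1, Ccr1l1 or Ccr2 was in a state other than 11, and the 2 starts of Ccr3 were in states 9 and 11.

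The distal ends of chromosomes 4 and 13 were the autosomal ends most like this one in DMC1 peaks. In the last 1 Mb of sequenced bases, chromosome 9 held 71 CKO peaks and 71 het peaks, chromosome 4 held 54 and 40, and chromosome 13 held 23 and 12. Over the 19 autosomes the median was 0 CKO peaks and 4 het peaks, and of the other 16 ends none held more than 2 CKO peaks or 8 het peaks. The widest peaks of the chromosome 4 end were 5951 bases in CKO and 3669 bases in het, and those of the chromosome 13 end were 4222 and 3801 bases.

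The ends differed in the states that held their peak centres. What share of the bases of each end these states make up was not computed, so the counts are a description. At the chromosome 9 end, state 11 held the centres of 34 of 71 CKO peaks and 41 of 71 het peaks, and state 1 held 4 and 5. At the chromosome 4 end, state 11 held 4 of 54 CKO and 3 of 40 het centres, and state 1 held 25 and 11. At the chromosome 13 end, state 11 held 2 of 23 CKO and 0 of 12 het centres, and state 1 held 8 and 6. The last 1 Mb of chromosome X, which holds the unit words, had 4 CKO peaks over 121199 bases and 20 het peaks over 71908 bases, and state 11 held 1 and 13 of their centres. Neither list has a peak on chromosome Y.

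**Figure D3:**
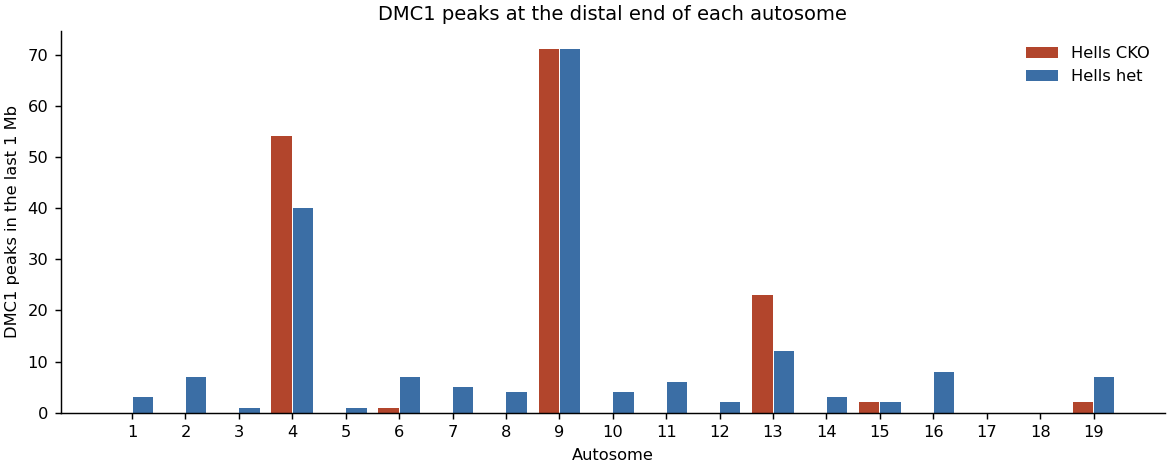
Number of DMC1 peaks in the last 1 Mb of each autosome (x axis), Hells CKO in red and Hells het in blue. Chromosome 9 stands at 71 in both lists, followed by chromosome 4 and chromosome 13, and the other ends hold at most 2 CKO and 8 het peaks.

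Words of 50 bases found more than once in the assembly made up 10.9% of the interval's words and 8.05% in the 400 kb at chr9:123450001-123850000. They made up 6.19%, 3.03% and 3.96% of the 3 widest CKO peaks of the interval, and 1.97%, 5.68% and 0.805% of the 3 widest het peaks. In the 5 widest peaks outside the interval they made up 0 to 2.70% in CKO and 1.90 to 7.28% in het. GC content was 39.8% in the interval and 42.5% in the neighbouring 400 kb, and CA or TG made up 14.53% and 15.04% of dinucleotides.

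None of the listed genes held a region of the count tables. No region of the ATAC, H3K9ac, H3K4me3, HELLS or F1 tables overlapped the body of Ccr1, Ccr1l1, Ccr3 or Ccr2 or lay within 1000 bp of their starts. Of 21521 protein-coding genes, 77.3% had a region of at least 1 of the 4 ATAC and histone tables within 1000 bp of a start. Expression was not measured, and fewer cells of a type and less signal per cell cannot be told apart in these bulk libraries.

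The same tables held few promoters of leukocyte genes and all those of the germ cell list. Among 13 macrophage and leukocyte markers, 2 had a promoter region in the KI and B6 ATAC table, 6 in the Hells ATAC table and 3 in each histone table, and all 8 germ cell markers had one in every table. Sertoli markers had one for 4 of 4 genes in every table, and Leydig markers for 0 to 3 of 4. No marker region passed the test in any comparison. Over promoter regions, the median level of germ cell markers was 26.1 CPM per kb (CPM, the count relative to the library's total in the table) in the KI and B6 ATAC table, beside 7.997 for the 2 leukocyte markers found.

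Of 19 chemokine receptor genes outside the interval, 7 had a promoter region in each ATAC table and 9 in each histone table. Only genes overlapping the interval were left out of this list, so neighbours on chromosome 9 could be in it. Over all protein-coding genes the share was 70.1% in KI and B6 ATAC, 70.2% in Hells ATAC, 73.6% in H3K9ac and 74.0% in H3K4me3. In KI against B6, 1 of 7 was higher in ATAC, Ccr10 (log2 fold change 0.63, SE 0.179, adjusted p = 0.0452, edgeR), and 1 of 9 in H3K9ac, Ccr6, a receptor of B cells and T cells (1.16, SE 0.167, adjusted p = 0.0138, edgeR). Among 29 chemokine ligands, 12 had an ATAC promoter region and 13 an H3K9ac promoter region. The ligand Ccl17 was higher in KI in both assays, at 2.65 in ATAC (adjusted p = 1.39e-05) and 1.87 in H3K9ac (adjusted p = 0.00572), and Cxcl9 was higher in KI in H3K9ac (2.31, adjusted p = 0.0369, all edgeR). Over all ATAC regions 7.14% were higher and 2.27% lower in KI, while H3K9ac rose in KI at 12.1% and fell at 0.208% of its regions. No receptor or ligand promoter passed in Hells CKO against Hells wt or in either Spo11/Spo11 comparison.

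Of the 19 receptors outside the interval, 4 had a CKO peak within 1000 bp of a start (Ccr4, Cxcr4, Cxcr6 and Xcr1) and 1 had a het peak (Xcr1). How near these genes lie to the interval was not examined, so they are no independent comparison. Of the 29 ligands, 3 had a CKO peak (Ccl25, Ccl28 and Cxcl2) and 0 a het peak. Over all protein-coding genes the share was 40.4% in CKO and 5.65% in het, and the lists were not tested against it.

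The interval held 4 regions in the KI and B6 ATAC table, 5 in the Hells ATAC table, 5 in the H3K9ac table and 5 in the H3K4me3 table. Regions at 3 places recurred in all 4 tables, with positions as the authors' tables give them. The first, called the Gm51701 region here, starts before that gene and holds its start and the first group of arrays. The second, called the long-array region, holds the second group of arrays and lies between genes. The third, called the Gm39469 region, lies within 1000 bp of that gene's start, which only the H3K9ac region reaches. Levels below are CPM after TMM scaling of the whole table. In how many regions of each table the groups do not overlap was not counted, so no weight rests on such separation below.

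None of these regions passed the test in any comparison, while many regions of the genome did. In KI against B6, 9.41% of 81887 ATAC regions and 12.3% of 91909 H3K9ac regions passed edgeR's quasi-likelihood test with Benjamini-Hochberg adjustment, and 0 of 4 and 0 of 5 of the interval did. In Hells CKO against Hells wt, 0.382% of 95033 ATAC regions and 11.7% of 78959 H3K4me3 regions passed, and 0 of 5 and 0 of 5 of the interval did. In Spo11/Spo11 libraries, 0% of regions passed in H3K9ac against B6 and 0% in H3K4me3 against Spo11/+. At an unadjusted p under 0.05, 3.93% of H3K9ac regions and 0.201% of H3K4me3 regions stood in those 2 comparisons, and DESeq2 called 138 and 5. These whole-table shares rest on single libraries: in KI H3K9ac 0 regions passed without KI replicate 1 and 0 without KI replicate 2, 7075 without B6 replicate 1, 1987 without B6 replicate 3 and 50946 without B6 replicate 2, against 11312 with all. In Hells ATAC 0 passed without Hells CKO replicate 3, 133 without Hells wt replicate 1 and 627 without Hells CKO replicate 1, against 363 with all, and in KI ATAC 18809 and 16458 passed without B6 replicate 1 and 2, against 7703. Within the interval, 1 region stood under an unadjusted p of 0.05 in each H3K9ac comparison and in Hells CKO H3K4me3, 0 in the other comparisons, and DESeq2 called 0 in each. The H3K9ac comparisons of KI and of Spo11/Spo11 share the B6 libraries.

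The Gm51701 region, the widest of the interval in each table, had the highest mean CPM when levels were not divided by width. Per kb it was not the highest: in H3K4me3 it ran from 10.2 to 16.9 CPM per kb over the 7 libraries, and the Gm39469 region from 15.6 to 25.6. In ATAC (chr9:123923067-123927899) it stood at 84.0 and 79.2 in KI, against 92.7 and 85.3 in B6. The difference was within its error (log2 fold change -0.12, SE 0.167, adjusted p = 0.871, edgeR). In the Hells ATAC table (chr9:123923035-123926640) it stood at 64.5, 53.8 and 52.8 in Hells CKO, against 61.9 and 51.4 in Hells wt. The Hells groups overlapped (0.01, SE 0.175, adjusted p = 1, edgeR).

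Histone marks of the Gm51701 region passed the test in no comparison. H3K9ac (chr9:123923027-123929571) stood at 83.7 and 61.6 in KI, at 73.4 in the Spo11/Spo11 library and at 70.6, 64.4 and 66.5 in B6. H3K4me3 (chr9:123923029-123929014) stood at 78.4, 77.1 and 101.2 in Hells CKO, against 73.8 in the Hells wt library, which was the lowest of the 4 (0.21, SE 0.241, adjusted p = 0.774, edgeR). In Spo11/Spo11 germ cells H3K4me3 stood at 64.4 and 65.7, against 61.1 in Spo11/+ (0.09, SE 0.252, adjusted p = 1, edgeR). By mean level the region ranked 1783rd of 81887 in KI and B6 ATAC, 2130th of 95033 in Hells ATAC, 1625th of 91909 in H3K9ac and 1743rd of 78959 in H3K4me3.

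Of the 3 shared places, the long-array region had the widest range of H3K4me3 between libraries. H3K4me3 there (chr9:124256041-124258111) stood at 21.6, 90.2 and 52.0 in Hells CKO, against 105.5 in Hells wt, and at 9.05 and 11.0 in Spo11/Spo11, against 11.4 in Spo11/+. The Hells wt library was the highest, but the CKO libraries differed among themselves by more than the nearest of them differed from it (-0.96, SE 0.508, adjusted p = 0.38, edgeR). The CKO library at 90.2 and the Hells wt library have neighbouring library numbers in the labels, and between those 2 the difference of log2 CPM was -0.23, with no test. All 4 libraries of the Hells cross stood above all 3 of the Spo11 cross, and the cross and the library numbers cannot be told apart. Against the mean of Hells wt and Spo11/+, the direction of the CKO value turned (0.65, adjusted p = 0.42, edgeR).

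H3K9ac of the long-array region (chr9:124256006-124258726) stood at 48.8 and 47.1 in KI, against 25.9, 48.7 and 33.3 in B6. The groups overlapped (0.42, SE 0.272, adjusted p = 0.376, edgeR), and without the B6 library at 48.7 the value was 0.70 and the adjusted p 0.000318. The Spo11/Spo11 library stood at 84.1, above each B6 library (1.23, SE 0.327, adjusted p = 0.924, edgeR), and without the same B6 library the value was 1.51 and the adjusted p 2.54e-06. That B6 library moved the whole table, since without it 50946 regions passed in KI and 32841 in Spo11/Spo11.

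ATAC levels of the long-array region overlapped between the groups. In ATAC (chr9:124256166-124258037) it stood at 26.6 and 31.9 in KI, against 28.8 and 15 in B6 (0.42, SE 0.243, adjusted p = 0.565, edgeR). Without the B6 library at 28.8 the value was 0.97 with an adjusted p of 5.82e-13, and without the other B6 library it was 0.00. In the Hells table (chr9:124256105-124258084) it stood at 24.1, 17.9 and 21.4 in Hells CKO, against 23.7 and 19.1 in Hells wt (-0.01, SE 0.216, adjusted p = 1, edgeR). Arrays fill most of this region, and reads in tandem copies may be placed at more than 1 copy, while how the authors treated such reads is not given in the sources used here.

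The Gm39469 region was steadier. In ATAC (chr9:124280971-124283098) it stood at 38.1 and 34.7 in KI, against 35.3 and 44.4 in B6 (-0.13, SE 0.164, adjusted p = 0.859, edgeR). In the Hells table (chr9:124280729-124282971) it stood at 34.6, 35.9 and 38.4 in Hells CKO, against 36.3 and 39.2 in Hells wt (-0.06, SE 0.173, adjusted p = 1, edgeR). H3K9ac (chr9:124279397-124283546) stood at 63.8 and 56.9 in KI, at 50.7 in Spo11/Spo11 and at 49.6, 59.4 and 48.5 in B6. H3K4me3 (chr9:124280514-124283309) stood at 69.7, 50.1 and 71.6 in Hells CKO, against 43.6 in Hells wt, with every CKO library above the Hells wt library (0.55, SE 0.258, adjusted p = 0.302, edgeR). Without the CKO library at 50.1 the value was 0.73, and without either other CKO library it was 0.48. In the Spo11 cross H3K4me3 stood at 47.6 and 44.3 in Spo11/Spo11, against 48.7 in Spo11/+.

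**Figure D4:**
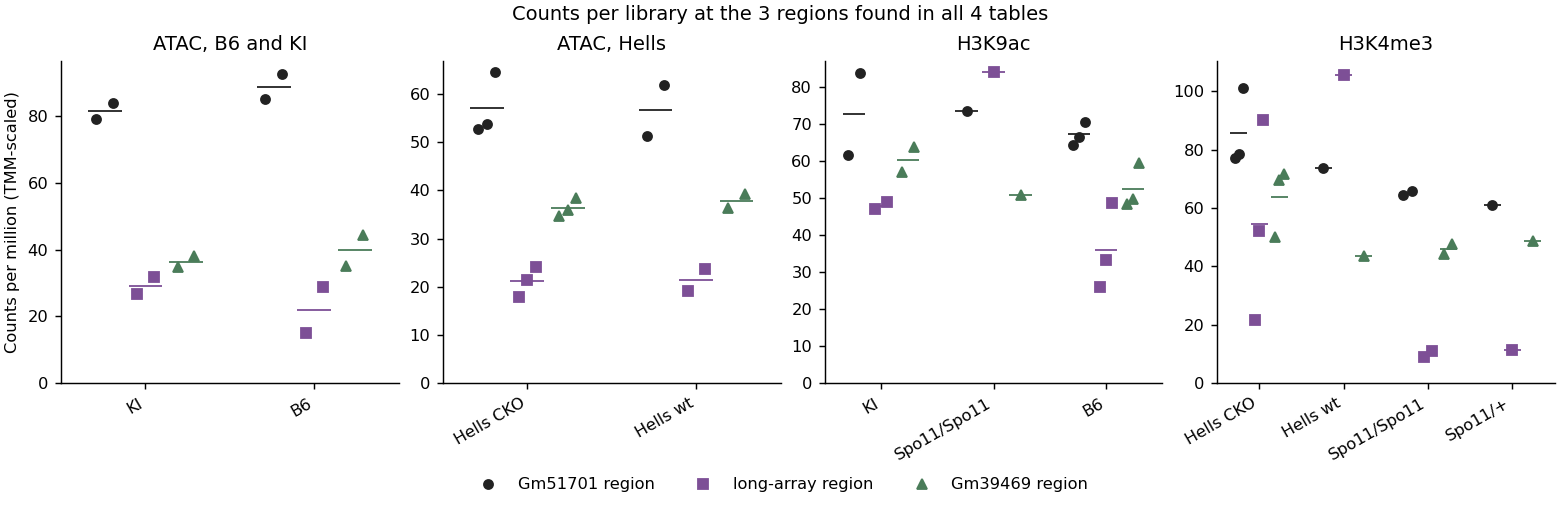
CPM (TMM-scaled) of each library at the 3 places with a region in all 4 tables, with a line at each group's mean. In H3K4me3 the Gm51701 region runs from 61.1 to 101.2, the Gm39469 region from 43.6 to 71.6 and the long-array region from 9.05 to 105.5. At the Gm51701 and Gm39469 regions every Hells CKO library stands above the single Hells wt library in H3K4me3. How many regions of the table do so was not counted.

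The lowest H3K4me3 region of the interval was the one with the largest value. This region, chr9:124249968-124250464, lies in intergenic sequence under a DMC1 peak of both genotypes. It held 2, 5 and 1 counts in Hells CKO, against 11 counts in Hells wt, and 35 and 32 counts in Spo11/Spo11, against 25 in Spo11/+. Every CKO library was lower than every other library of the table, at 0.0622, 0.258 and 0.0367 CPM in CKO and 0.779 in Hells wt. The log2 fold change of -2.83 (SE 0.929) had an adjusted p of 0.0847 (edgeR). The adjusted p was 0.0185 against the mean of Hells wt and Spo11/+ (edgeR), but 0.157 against Hells wt in DESeq2. Without the CKO library with 5 counts the log2 fold change was -3.81. It was -2.39 without the CKO library with 1 count and -2.54 without the one with 2 counts. Over the table, 11.7% of regions were lower in Hells CKO and 0.0279% were higher.

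Small ATAC regions lay apart from the 3 shared places. The region chr9:123931574-123932497 held 24, 82 and 74 counts in Hells CKO, against 45 and 79 in Hells wt, and chr9:123941402-123941846 held 6, 26 and 12 counts, against 4 and 13. The region chr9:124128374-124128772 held 80 and 62 counts in KI, against 63 and 67 in B6. In H3K9ac, chr9:123931781-123932326 held 47 and 30 counts in KI, 15 in Spo11/Spo11 and 41, 26 and 47 in B6. None passed the test. In the last of these, both KI libraries, at 2.17 and 1.82 CPM, stood above the B6 libraries, at 1.32, 1.64 and 1.53 (0.42, SE 0.326, adjusted p = 0.449, edgeR), and the groups of the other 3 regions overlapped.

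By the smallest distance in log2 CPM over the libraries of a table, the promoter regions most like the Gm51701 region were those of 1700029J07Rik, Lin7c and Fv1 in KI and B6 ATAC (4 libraries, distances 0.053 to 0.060). In Hells ATAC they were Ccnf, Kmt5a and 1700092M07Rik (5 libraries, 0.055 to 0.086). In H3K9ac they were Maml3, Hivep2 and Tecr (6 libraries, 0.147 to 0.185), and in H3K4me3 Kcnn1, Ccdc85c and Pde5a (7 libraries, 0.140 to 0.168).

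The only HELLS peak of the interval, chr9:123925270-123926329, lay over Gm51701 and 2 of the arrays, and its enrichment was among the lowest of all HELLS peaks. The HELLS libraries of KI testis held 163 and 178 counts there, against 72 in IgG and 90 in input. Per kb, the HELLS counts were 153.9 and 168.1, beside medians of 102.6 and 86.5 over all 2675 peaks. The IgG and input counts per kb were 68.0 and 85.0, beside medians of 15.2 and 26.8, and 0.150% of peaks were as high as this one per kb in IgG and in input. The log2 ratio of mean HELLS to IgG counts, with a pseudocount of 1 and no scaling for depth, was 1.23 (1.17 and 1.29 for the libraries alone), beside a median of 2.53 over all peaks, and 1.27% of peaks had a lower ratio. Against input the ratio was 0.91, beside a median of 1.77. IgG and input had 1 library each, so the ratio has no replicate check.

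**Figure D5:**
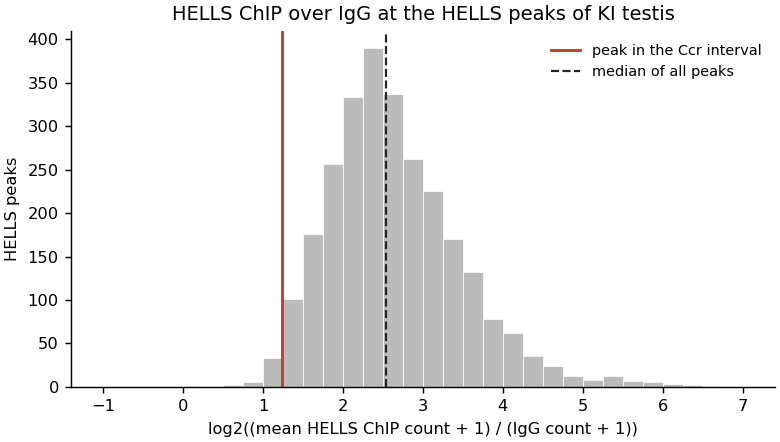
Number of HELLS peaks by log2 ratio of mean HELLS ChIP count to IgG count (pseudocount 1) in KI testis. The peak of the Ccr interval, drawn as a red line at 1.23, lies in the low tail, below the dashed median of 2.53.

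The F1 table, which gives estimated counts for the B6 and the CAST allele, held 1 region in the interval. It had 0 counts on the B6 allele and 0 counts on the CAST allele in each of the 2 ATAC libraries and the H3K9ac library, and a count of 0 allows up to 3 counts per allele and library. Of 80892 regions in that table, 5.265% had 0 counts on both alleles in every library used. No allele comparison could therefore be made for the interval.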

How the data were processed

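ATAC and ChIP libraries were compared in tables of whole-number counts of reads per region, deposited by the authors as raw counts, and scaled here by TMM (edgeR 4.0.16, limma 3.58.1, R 4.3.3). Each table was fitted whole, after filterByExpr, with edgeR's quasi-likelihood test and Benjamini-Hochberg adjustment at 0.05, and DESeq2 1.42.0 was an alternative. Table totals were 27952728 to 34572929 counts in KI and B6 ATAC, 6416704 to 11352108 in Hells ATAC, 13195275 to 30233934 in H3K9ac and 13321006 to 42007820 in H3K4me3, so a count of 10 or less carries a large counting error. The F1 table holds estimated counts per allele, deposited by the authors. Its region in the interval was below the minimum of 20 counts and below the alternative minimum of 10. The DMC1 lists, HELLS peaks with counts and the chromatin states were used as deposited, with peak starts printed from 1. The submitters' processing notes list BWA 0.7.15, Bowtie 0.12.9, CASAVA and MACS 1.4.2, and how reads in repeats were filtered is not stated there. In the tables, 10 columns matched no sample and were not used, and 56 duplicated regions of the Hells ATAC table were dropped. The KI and B6 ATAC columns show the group but not the sample.

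Genes and sequences came from RefSeq's GRCm38.p6, whose chromosome lengths matched the last chromatin-state segments within 200 bp. Scripts were tested on simulated data. The members and lists were chosen with earlier results of these data known. Every listed gene, table region and DMC1 peak was to be named; of the peaks, the widest and those at genes are given and the rest by range. One further protein-coding gene of the interval, with the regions over it, is not reported here by name, though counts of regions include them. Replicate numbers were given in accession order.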

Additional observations from a re-analysis of the deposited data

How the results depend on the processing

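Of the counts and summary values of the interval, 54 kept their direction and side of the threshold, or stayed within the set range, under the alternatives tried, and 9 moved. Of single-region values, 242 did so, 16 turned direction and 8 passed the test where they had not. Regions called, leaving out 1 library at a time, ranged from 0 to 1 in KI against B6 ATAC, 0 to 2 in KI against B6 H3K9ac, 0 to 2 in Spo11/Spo11 H3K9ac and 0 to 2 in Hells CKO H3K4me3, and stayed at 0 in Hells ATAC and Spo11/Spo11 H3K4me3. Over whole tables, leaving out 1 library gave 6499 to 18809 regions in KI against B6 ATAC (7703 with all), 0 to 627 in Hells ATAC (363), 0 to 50946 in KI against B6 H3K9ac (11312), 0 to 32841 in Spo11/Spo11 H3K9ac (0), 6897 to 12738 in Hells CKO H3K4me3 (9245) and 0 to 2 in Spo11/Spo11 H3K4me3 (0). Against the mean of Hells wt and Spo11/+, 1 region of the interval passed in Hells CKO H3K4me3, with 13011 in all, and the long-array value was 0.65. With library size alone the long-array value was 0.025 in Hells ATAC and the Gm51701 value -0.036 in KI H3K9ac. The library-number block gave 1211 regions in Hells ATAC, against 363 without it, and 0 in the interval. Merging DMC1 peaks within 1000 bp gave 20 CKO peaks, the widest 67622 bases, and 33 het peaks, and widening the interval by 50000 bp at each side gave 69.6% in state 11. The cause of these changes was not tested. No paired analysis was possible because replicate numbers were given in accession order and only name the samples; the block on library numbers is a batch term.

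Leaving out 1 library turned the direction of these log2 fold changes. In KI against B6 ATAC they ran from -0.019 to 0.52 at chr9:124128374-124128772, 0.00 to 0.97 at the long-array region and -0.28 to 0.02 at the Gm39469 region. In Hells ATAC they ran from -0.12 to 0.15 at Gm51701, -0.51 to 0.09 at chr9:123931574-123932497, -0.17 to 0.14 at the long-array region and -0.11 to 0.001 at Gm39469. In H3K9ac they ran from -0.15 to 0.32 at Gm51701 in KI and -0.10 to 0.047 at Gm39469 in Spo11/Spo11. In H3K4me3 they ran from -0.02 to 0.41 at a further region in Hells CKO and -0.16 to 0.30 at chr9:124249968-124250464 in Spo11/Spo11.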

Other observations

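The unit words were counted beside DMC1 peaks within 200 kb of each locus. The distal X locus with 762 words had 19 CKO peaks over 187571 bases and 30 het peaks over 90288 bases, the chromosome 13 locus had 21 over 46196 and 11 over 16364 bases, and the long-array locus of chromosome 9 had 21 over 141518 and 37 over 105236 bases. The first group of chromosome 9, with 25 words, had 53 over 202182 and 45 over 100450 bases, and a second distal X locus with 29 words, chrX:170672874-170673352, had 0 peaks of either list. The windows of the long-array locus and the first group overlap, so some peaks, among them the widest CKO peak, are counted at both. A locus on chromosome 7 with 10 words, chr7:7299054-7300370, far from the distal end, had 4 CKO peaks and 0 het peaks, and the 8 X loci with 10 to 12 words near chrX:123266242-125566973 had 0 peaks of either list.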
